A study of Homo sapiens with 4 samples.

Results

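Human genes give rise to transcripts that carry a stop codon well upstream of their last exon junction, and the GENCODE annotation types these as nonsense-mediated decay transcripts. They were followed here in MDA-MB-468 cells, a human breast cancer line, given MS1943 or its vehicle. A transcript was taken if GENCODE 29 gives it that type and if its mean level over the 4 libraries was at least 0.5 TPM, an abundance scaled by transcript length and library size. This left 5312 transcripts of 3386 genes, out of 13451 transcripts of the type and 193348 transcripts in all. The transcripts were chosen by their mean TPM, so their level is a description. The share of each transcript in its gene, in percent of the gene's summed TPM, played no part in the choice.

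Nonsense-mediated decay removes mRNAs on which translation ends too early. A ribosome that stops upstream of an exon junction leaves behind a protein complex deposited at that junction during splicing, and the helicase UPF1, phosphorylated by the kinase SMG1, then marks the mRNA for cleavage by SMG6 or for removal from its ends. Splicing factors use this route on their own transcripts: by including a short exon with a stop codon, often called a poison exon, a cell makes mRNA that is degraded instead of translated. In steady-state RNA these transcripts are therefore mostly minor forms of their gene, and their level reflects both how often they are spliced and how fast they are removed.

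The comparison was between cells given DMSO (n = 2) and cells given 5 µM MS1943 for 3 days (n = 2), both at passage 12 of the line. No time is given for DMSO. MS1943 is, by the title of the series, a compound that degrades EZH2, the methyltransferase of Polycomb repressive complex 2, and both groups are the same unmodified line, which the labels class as triple negative. The labels call the RNA samples duplicates without saying whether these came from separate cultures, and the p-values therefore rest on a spread that may be technical.

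The libraries held between 47564377 and 71378893 estimated reads. All 9 epithelial and basal markers of the line were present, with summed TPM between 5215 and 7730. PGR was listed at 0, and ESR1 lay between 0.851 and 1.16 TPM. Of the 5 leukocyte, 5 fibroblast and 4 endothelial markers, 4, 4 and 3 stayed under 1 TPM in every library. The exceptions were CD68, at 1.72 and 0.733 TPM with DMSO and 31.7 and 30.6 with MS1943, COL1A1, between 10.2 and 17.8, and KDR, at 1.24 and 1.19 with DMSO and 0.409 and 0.445 with MS1943. In bulk RNA, a change in the number of cells of a type and a change in RNA per cell cannot be told apart. The percent of reads on mitochondrially encoded transcripts was 1.65 and 1.78 in the DMSO libraries and 3.52 and 3.11 in the MS1943 libraries, and its part in the results was not tested. EZH2 mRNA stood at 78.0 and 74.3 TPM with DMSO and 58.9 and 61.6 with MS1943, a log2 fold change of -0.193 ± 0.056 (SE; edgeR quasi-likelihood test, adjusted p = 0.00605). The compound acts on the EZH2 protein, so the mRNA does not check the labels.

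The type is assigned from the position of the stop codon, and the annotated structures follow it. Of 5302 with an annotated stop codon, 99.1% had their last exon junction more than 50 bases downstream of it, against 0.471% of 3182 main protein-coding transcripts of the same genes, where the main one is the coding transcript with the highest mean TPM. The median distance from the stop codon to the last junction was 308 bases, with a median of 3 junctions after the stop. The stop codon was TGA in 59.6% of them and in 51.1% of the main coding transcripts. In 2103 the stop codon lay in bases that the main coding transcript lacks, as in a poison exon or a retained stretch. In 2661 it lay in bases that the main coding transcript also has, where the frame or the start differs, and 235 used the main stop codon with further splicing after it.

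A few of these reading frame ends, all from transcripts whose share changed, show how the stop arises. The first set are transcripts in which the exon with the stop codon begins in bases that the main coding transcript does not have, so the whole stretch from the exon's first base to the stop is added. Sequences are of GENCODE 29 transcripts on hg38, 5′ to 3′, with the stop codon in capitals. SRSF7-205 (chr2:38749319-38749346, minus strand) stops in exon 4 of 9, TRA2B-206 (chr3:185931772-185931852, minus) in exon 2 of 10 and RBM39-206 (chr20:35740526-35740597, minus) in exon 3 of 18. SRSF3-203 (chr6:36599821-36599854, plus), chosen after its values were seen, stops in exon 4 of 7. TMEM222-202 (chr1:27330985-27331023, plus) stops in exon 3 of 7 and SSR2-203 (chr1:156012527-156012565, minus) in exon 5 of 6.
SRSF7-205: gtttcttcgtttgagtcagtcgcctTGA
SRSF3-203: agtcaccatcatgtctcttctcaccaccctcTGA
TRA2B-206: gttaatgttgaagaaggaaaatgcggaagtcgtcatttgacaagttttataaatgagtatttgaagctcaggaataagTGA
RBM39-206: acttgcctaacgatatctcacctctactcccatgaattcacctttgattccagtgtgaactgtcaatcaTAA
TMEM222-202: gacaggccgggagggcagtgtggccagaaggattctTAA
SSR2-203: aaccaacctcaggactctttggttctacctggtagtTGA

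In the second set the stop codon lies in bases that the main coding transcript also has and that are reached here in another way. These are shown because each of them changed in share. The last 30 bases of the frame are shown, again with the stop in capitals. PSMA3-209 (chr14:58252155-58252184, plus) and RPLP0-214 (chr12:120199377-120199406, minus) stop within exon 3 of 8, and TLE3-221 (chr15:70054645-70054674, minus) in exon 16 of 20.
PSMA3-209: ctttggggtagaaaaattagtcctttcTAA
RPLP0-214: tgtcccttcgcgggaaggctgtggtgcTGA
TLE3-221: ttacatccgctcctgcaagctgctcccTGA

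Most of the transcripts were minor forms. Their mean level had a median of 1.79 TPM, with quartiles of 0.920 and 4.62. A mean share above 5% of the gene was held by 53.5% of them, above 10% by 34.3%, and above 50% by 182 (3.43%). In 44 no other transcript of the gene was above 0. Among 2167 genes with 1 such transcript and others with up to 13, 292 transcripts were listed at 0 in at least 1 library. The transcripts nearest to the TPM threshold were ARHGEF1-217 (0.4990), SAP30BP-222 (0.4994) and NCAPD3-213 (0.4995) outside it and ASNS-213 (0.5001), NIPSNAP3B-202 (0.5002) and ARPC2-203 (0.5007) inside it.

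None of the 6 most abundant transcripts was called in the share test. RPS3-216, of the small ribosomal subunit protein RPS3, held 24.0% and 22.6% of its gene with DMSO and 24.2% and 22.8% with MS1943, at 1320, 1130, 1090 and 1090 TPM. B2M-212, of the light chain of MHC class I, held 63.1% and 64.0% with DMSO and 66.2% and 64.3% with MS1943. ACTG1-214 and ACTG1-205, of gamma-actin, held 16.2% to 17.3% and 8.19% to 10.4% over the 4 libraries. The adjusted p of each of these 4 was 1.0 (edgeR), which does not show that they were equal. RACK1-224, of a ribosome-bound scaffold protein, had 18.0% and 16.7% against 23.5% and 23.9% (adjusted p = 0.336). FTH1-210, of the ferritin heavy chain, had 3.42% and 4.18% against 6.58% and 7.15% (adjusted p = 1.0), while its level rose with its gene, from 153 and 188 TPM to 902 and 1010 TPM (log2 change 2.55 ± 0.11, adjusted p = 0.00379).

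As a class the decay transcripts took a larger part of their genes with MS1943. Their median share was 4.91% and 5.15% with DMSO and 6.09% and 6.11% with MS1943, a difference of 1.07 percentage points. Both MS1943 libraries were above both DMSO libraries. Summed, they made up 3.45% and 3.51% of all TPM with DMSO and 3.83% and 3.97% with MS1943, a 1.12-fold ratio. With 2 libraries against 2, the smallest 2-sided p that an exact permutation test can give is 0.333, which both comparisons reached, so neither can be called by that test. Retained-intron transcripts had a median share of 2.54% and 2.92% with DMSO and 3.00% and 2.99% with MS1943. Processed transcripts, which have no annotated reading frame, had 5.08% and 5.34% against 5.63% and 5.69%. Protein-coding transcripts had 14.9% in both DMSO libraries and 14.7% in both MS1943 libraries.

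**Figure D1:**
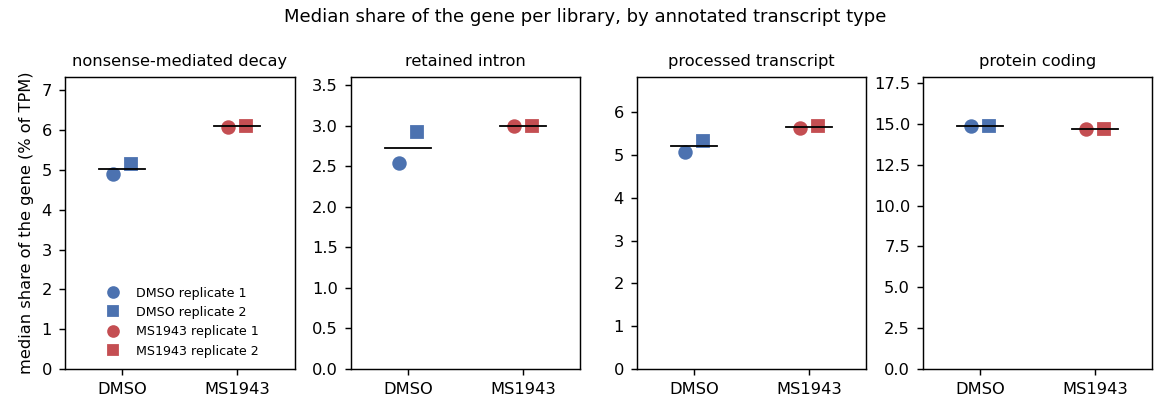
Median share of the gene, in percent of the gene's summed TPM, for transcripts with a mean TPM of at least 0.5 of each annotated type; points are libraries (circle replicate 1, square replicate 2) and bars are group means, and each panel has its own axis from 0. The decay transcripts stood at 4.91% and 5.15% with DMSO and at 6.09% and 6.11% with MS1943, while protein-coding transcripts stood at 14.9% and 14.7%.

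Single transcripts were tested for their share with edgeR's diffSpliceDGE, which compares the change of each transcript's reads with that of its gene over all 68355 transcripts that passed a filter on low counts. Of the 5312 transcripts, 5051 were tested. The share of 98 (1.94%) rose and that of 17 (0.337%) fell at an adjusted p under 0.05. Over all transcripts tested, 0.91% were called higher and 0.797% lower. Among those with a mean TPM of at least 0.5, as asked of the decay transcripts, these were 0.807% and 0.591%. The median log2 change of share was 0.21 for the decay transcripts and 0.0201 for all transcripts, and 65.4% of the former and 53.1% of the latter were above 0. Both MS1943 libraries stood above both DMSO libraries for 1873 of the 5312 (35.3%), against 25.1% of all transcripts with a mean TPM of at least 0.5, and below them for 773 (14.6%), against 22.9%. For a single transcript, the median absolute gap between the libraries of a group was 1.19 points with DMSO and 1.27 with MS1943, and that between group means was 1.47. The median of the signed difference, MS1943 minus DMSO, was 0.509 points. With any library left out, the test called fewer rises, and in part other transcripts than with all 4 libraries. Falls were fewer without a DMSO library and more without an MS1943 library, where most of them were other transcripts.

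Transcripts of small share can move further on the log scale than the dominant form of a gene. Among those with a mean share under 20%, the median log2 change was 0.266 for decay transcripts and 0.0557 for all other types. It was 0.188 for retained-intron, 0.134 for processed and -0.012 for protein-coding transcripts in that range. Retained-intron transcripts of any share had 64 calls higher and 27 lower out of 8613 tested, so the decay type was not the only one with more rises than falls, and no difference between types was tested.

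**Figure D2:**
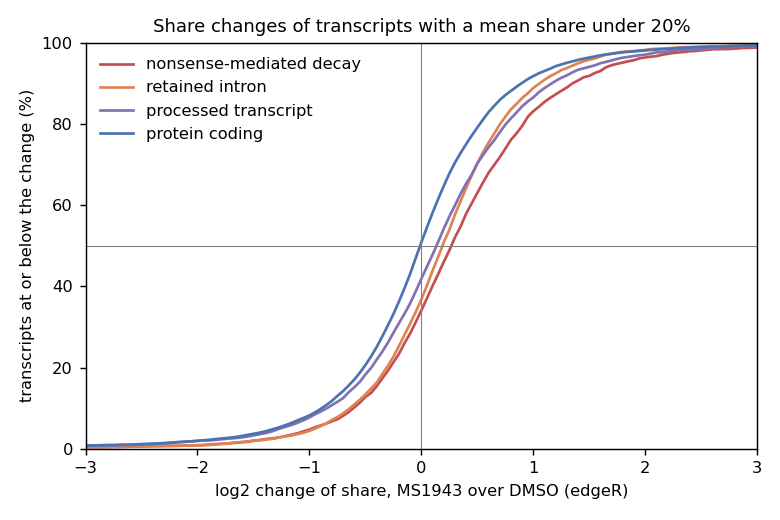
Cumulative percent of transcripts (vertical axis) at or below a given log2 change of share with MS1943 (horizontal axis, shown from -3 to 3), for transcripts with a mean TPM of at least 0.5 and a mean share under 20%, one line per annotated type. The line of the decay transcripts lies furthest to the right above a change of 0, with 34.1% of them at or below 0 against 50.9% of protein-coding transcripts.

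The filter on mean TPM left in some transcripts that passed through 1 group alone. With DMSO, 262 were under 0.5 TPM in both libraries, and 19 of the 98 rises were among these. With MS1943, 139 were under 0.5 TPM in both libraries, and they held 10 of the 17 falls. Of the 3794 with at least 0.5 TPM in every library, 75 rose and 5 fell. The share of called rises went up with the level: 8 of 1294 tested (0.618%) at 0.5 to 1 TPM, 46 of 939 (4.90%) at 5 to 20 TPM and 19 of 288 (6.60%) at 20 TPM or more. The median log2 change of share was lower in the higher of these ranges, at 0.251, 0.16 and 0.0867. The percent called among all transcripts of each range is not given here, and more reads make a call easier. At 20 TPM or more edgeR called 0 falls, with 8 at an unadjusted p under 0.05.

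Reads that the quantification could move between several decay transcripts of a gene were kept together by summing the type per gene. No other type was pooled, and edgeR's common coefficient of variation was 0.148 in this fit against 0.37 for single transcripts. The percents called are therefore not to be set beside those of single transcripts. Of 4035 genes tested this way, 172 had a higher pooled share (4.26%) and 39 a lower one (0.967%), with a median log2 change of 0.19. These counts fell with any library left out, to 71 and 8 without DMSO replicate 1, 104 and 16 without DMSO replicate 2, 14 and 2 without MS1943 replicate 1 and 14 and 4 without MS1943 replicate 2. In 7 genes 2 decay transcripts were each called, higher in all of them: BZW2, EIF4A2, SRSF2, TMX2, TRMU, UPP1 and YIPF3.

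The level of the transcripts themselves was also tested. Of 5111 tested, 413 were higher and 133 lower, where 6.23% of all transcripts were called higher and 6.21% lower. Without a library these counts were lower too, at 119 and 17 (DMSO replicate 1), 121 and 29 (DMSO replicate 2), 57 and 32 (MS1943 replicate 1) and 44 and 28 (MS1943 replicate 2). Of the 98 with a higher share, in 91 genes, the level of 73 was also higher and that of 25 was not called. Their host gene was higher in 49 cases, lower in 30 and not called in 19, and 17 transcripts rose in level while their gene fell. Their median share went from 2.19% to 8.33%. Of the 17 with a lower share, 11 also fell in level, and the median share went from 4.56% to 0.466%. The median log2 change of share was 0.202 where the host gene rose (2282 transcripts), 0.213 where it fell (1659) and 0.211 where it was not called (1370). A main coding transcript could be named for 97 of the 98 rises. Its TPM was lower in both MS1943 libraries than in both DMSO libraries in 59 and higher in 32. The same count for transcripts without a call is not given here. A share also rises when the rest of its gene falls, so these counts only describe the called rises.

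Splicing and RNA-binding factors made up 1 of the larger host gene lists. Of 160 transcripts in 89 genes, 152 were tested, 14 rose in share (9.21%) and 2 fell (1.32%), and the median log2 change was 0.255. Over all transcripts 0.91% were called higher and 0.797% lower, with a median of 0.0201. The share of rises was higher among translation factors, at 14.0% of 50 tested. Lists were drawn up with earlier results of these data known, so their counts describe and do not test the group. The host gene fell for 12 of the 14 rises and rose for RBM39 and SF1, while 80 of all 160 had a host gene that fell. The main coding transcript was lower in both MS1943 libraries for 12 of the 14. That count is not given for the rest of the list, so it only describes the called rises.

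SRSF7-205 had the largest fitted rise among transcripts with a mean TPM of at least 2 and a level above 0 in every library. SRSF7 is an SR protein, a family that binds exons and recruits the splicing machinery. Its poison-exon transcript, with the added stretch shown above, stood at 0.454 and 0.210 TPM with DMSO and 5.06 and 3.71 TPM with MS1943. Its share went from 0.183% and 0.0864% to 3.66% and 2.72%, a fitted log2 change of 4.47 ± 0.37 (SE, adjusted p = 1.51e-07) that was 5.08 without DMSO replicate 1. The groups did not overlap, which the rule for naming the transcript fixed. In both DMSO libraries SRSF7-205 was under 0.5 TPM, so it passed the filter on mean TPM through MS1943 alone. Meanwhile the gene fell, from 248 and 244 TPM to 138 and 136 TPM (log2 fold change -0.621, adjusted p = 1.14e-08), and the main coding transcript SRSF7-202 went from 145 and 148 TPM to 76.3 and 77.6.

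Other SR genes showed the same fall of the gene with a decay transcript at a steadier level. SRSF3-203, chosen after its values were seen, carried 21.7% and 21.1% of SRSF3 with DMSO and 38.7% and 36.1% with MS1943 (log2 change 0.829 ± 0.15, adjusted p = 0.00296). Its own level was 110 and 102 TPM against 121 and 110 TPM and was not called (adjusted p = 0.299). The main coding transcript SRSF3-208 stood at 225 and 209 TPM with DMSO and 109 and 118 TPM with MS1943. SRSF2-208, of another SR protein, rose from 12.9% and 14.9% to 24.7% and 30.6% of its gene (log2 change 1.02 ± 0.18, adjusted p = 0.00188). Its level, 50.7 and 63.5 TPM against 55.7 and 71.7 TPM, was not called, and SRSF2 as a gene fell from 393 and 427 to 226 and 235 TPM.

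TRA2B-206 belongs to TRA2B, an SR-like splicing regulator. It rose from 8.65% and 10.7% to 18.2% and 16.8% of the gene (log2 change 0.955 ± 0.15, adjusted p = 0.000558). Its level was 20.9 and 26.8 TPM against 33.9 and 32.9 TPM (adjusted p = 0.057). The gene fell from 242 and 252 to 186 and 197 TPM. In the rises of SRSF3, SRSF2 and TRA2B, then, the level of the decay transcript did not pass the test while that of the gene fell.

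HNRNPDL-202 moved by many more points. HNRNPDL encodes a nuclear RNA-binding protein, and this transcript keeps the main stop codon but has 2 further junctions after it, the last 127 bases downstream. It held 2.50% and 3.11% of the gene with DMSO and 21.5% and 22.0% with MS1943 (log2 change 2.94 ± 0.56, adjusted p = 0.00639). Its level rose from 6.89 and 8.01 TPM to 38.9 and 42.0 TPM, as HNRNPDL-206, the main coding transcript, went from 242 and 225 TPM to 121 and 127 TPM. The call on its share was lost with either DMSO library left out, at an adjusted p of 0.283 without replicate 1 and of 0.22 without replicate 2.

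RBM39-206 is on the list, while CIRBP-210 is not and is given beside it as 1 of the largest rises. CIRBP, a cold-inducible RNA-binding protein, gave CIRBP-210 at 5.39% and 5.15% with DMSO and 24.5% and 22.7% with MS1943 (log2 change 2.29 ± 0.47, adjusted p = 0.00342), while the main transcript CIRBP-201 went from 67.8 and 71.5 TPM to 28.5 and 30.3 TPM and the gene fell (log2 fold change -0.24, adjusted p = 0.00119). The call on CIRBP-210 was lost in every fit that left out a library. RBM39, a splicing coactivator, was higher as a gene (log2 fold change 0.451, adjusted p = 1.08e-06). RBM39-206 rose from 3.34% and 3.38% to 12.3% and 10.5% of it (log2 change 1.69 ± 0.3, adjusted p = 0.000188), or from 6.26 and 6.43 TPM to 26.2 and 25 TPM.

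Other rises on the list, HNRNPM-214, SRSF2-204, SRSF10-215, HNRNPH1-211, HNRNPL-202, SF1-211 and HNRNPK-207, are named after their values were seen. Their log2 changes of share lay between 0.737 (HNRNPK-207) and 1.95 (HNRNPM-214). The 2 falls were CLK3-225, of a kinase of SR proteins, from 4.63% and 4.25% to 0.931% and 0.00%, and METTL3-206, of the m6A methyltransferase, from 3.86% and 4.44% to 0.339% and 0.198%. Both are also named after their values were seen, and both were at 2.42 TPM or less in every library.

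**Figure D3:**
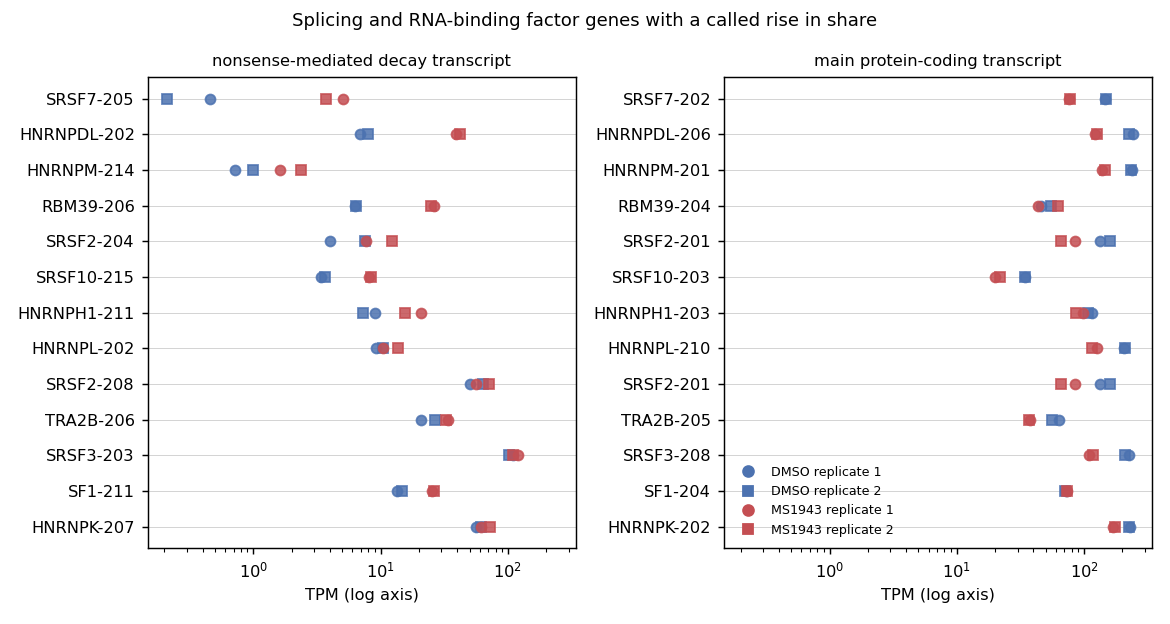
TPM per library on a log axis for 13 of the 14 decay transcripts of splicing and RNA-binding factor genes with a called rise in share (left) and for the main protein-coding transcript of the same gene (right); blue is DMSO, red is MS1943, circle and square are replicates. SRSF7-205 went from 0.454 and 0.210 TPM to 5.06 and 3.71 TPM while SRSF7-202 went from 145 and 148 TPM to 76.3 and 77.6 TPM, and SRSF3-203 stayed between 102 and 121 TPM.

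Of 54 transcripts of initiation and elongation factor genes, 50 were tested and 7 rose (14.0%, against 0.91% of all transcripts), with a median log2 change of 0.396. edgeR called 0 lower, where 0.797% of all transcripts were called lower, with 1 at an unadjusted p under 0.05, and limma with a pseudocount of 1 called 1 higher and 0 lower. EIF3E-215, of a subunit of the initiation factor eIF3, rose from 0.568% and 1.61% to 4.83% and 4.82% (log2 change 2.21 ± 0.39, adjusted p = 0.00235), and the call was lost without DMSO replicate 1 (log2 change 1.57, adjusted p = 0.286). EIF3G-214, of another eIF3 subunit, rose from 0.477% and 0.664% to 2.13% and 2.14% (adjusted p = 0.00496). For both, the gene and the transcript level rose too. EIF4A2-203, of a helicase that unwinds mRNA for initiation, rose from 7.44% and 10.7% to 15.4% and 18.6% (log2 change 0.961 ± 0.17, adjusted p = 0.000508), with no call on the gene (adjusted p = 0.15). PAIP1-205, of a partner of poly(A)-binding protein, was uneven: 0.13% and 0.399% with DMSO against 1.92% and 8.05% with MS1943 (log2 change 4.34, adjusted p = 0.0041). The call was lost with MS1943 replicate 2 left out (log2 change 2.91, adjusted p = 0.405) and with DMSO replicate 1 left out (log2 change 3.74, adjusted p = 0.108).

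Among 52 transcripts of ribosomal protein genes 51 were tested and 2 rose (3.92%, against 0.91% of all transcripts). There were 0 called lower, against 0.797% of all transcripts, with 0 lower at an unadjusted p under 0.05 in edgeR and 0 in limma with a pseudocount of 1. The median log2 change was 0.537, the highest of the host gene lists with more than 20 transcripts. RPL13A-214 rose from 1.77% and 1.61% to 4.36% and 4.39% of RPL13A (log2 change 1.44 ± 0.16, adjusted p = 1.03e-06), or from 65.3 and 60.1 TPM to 161 and 151 TPM, with no call on the gene (log2 fold change 0.00592, adjusted p = 0.947). RPLP0-214, of the stalk protein of the large subunit, rose from 2.01% and 2.30% to 7.53% and 7.33% (log2 change 1.82 ± 0.29, adjusted p = 7.51e-05). RPL18-206, at 0.272% and 0.303% against 0.776% and 0.928%, missed the threshold (adjusted p = 0.0511), as did RPS9-206, at 1.88% and 2.27% against 3.85% and 3.21% (adjusted p = 0.0534). In each of these 4, both MS1943 libraries stood above both DMSO libraries. Ribosomal protein genes have many pseudogene copies, so their read assignment is uncertain.

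Proteasome and ubiquitin genes held 160 of the transcripts, of which 157 were tested and 7 rose (4.46%, against 0.91% of all transcripts). There were 0 called lower, against 0.797% of all transcripts (5 lower at an unadjusted p under 0.05 in edgeR, and 0 called lower in limma with a pseudocount of 1). The median log2 change was only 0.0898. Here the host gene rose with 6 of the 7. PSMD2-204 stands for this pattern: PSMD2, a subunit of the proteasome's regulatory particle, went from 313 and 317 to 622 and 648 TPM, and PSMD2-204 from 15.4 and 13.1 to 84.0 and 89.8 TPM. Its share rose from 4.91% and 4.13% to 13.5% and 13.9% (log2 change 1.71 ± 0.26, adjusted p = 7.72e-05). PSMA3-209, of a subunit of the core particle, rose from 0.54% and 0.351% to 3.07% and 3.74% (log2 change 2.95 ± 0.32, adjusted p = 0.000258). PSME4-201, of a proteasome activator and also the 1 rise on the list of interferon and antigen presentation genes, rose from 5.09% and 6.53% to 15.3% and 13.3% (adjusted p = 5.28e-05). RNF216-201, of a ubiquitin ligase, rose from 4.14% and 4.64% to 10.7% and 15.7% (adjusted p = 0.004).

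RRM1-212, of the large subunit of ribonucleotide reductase, rose from 0.584% and 0.222% to 4.36% and 3.22% (log2 change 3.07, adjusted p = 0.00877). Its log2 change was 4.02 without DMSO replicate 1 and 2.52 without DMSO replicate 2. The call was not kept in every fit that left out a library. RRM1-212 was 1 of 2 rises among 90 tested (2.22%, against 0.91% of all transcripts) on the list of DNA replication and mitosis genes. On that list 70.2% of the 94 transcripts had a host gene that fell.

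The remaining lists had few calls. Rises made up 4.35% of the tested transcripts for chaperone and ER stress genes and 1.45% for respiratory chain genes. They made up 2.38% for chromatin genes and 0.592% for metabolism and transport genes. Over all transcripts 0.91% were called higher and 0.797% lower, and of the decay transcripts 1.94% and 0.337%. Chaperone and ER stress genes had 3 rises of 69 tested: BAG1-203, of a cochaperone of HSP70, from 4.37% and 4.88% to 13.0% and 13.4% (adjusted p = 0.00706), CCT3-206, of a subunit of the chaperonin TRiC, from 0.838% and 0.872% to 2.96% and 2.49% (adjusted p = 0.0266), and DNAJC18-204, of a J-domain cochaperone. DNAJC18-204 was listed at 0 in both DMSO libraries and took 18.0% and 10.7% with MS1943 on 24.6 and 9.86 estimated reads. Respiratory chain genes had 1 rise of 69 tested, UQCRH-205, of the hinge protein of complex III, from 8.41% and 9.65% to 17.9% and 18.8% (log2 change 0.993 ± 0.1, adjusted p = 0.000156). Chromatin genes had 2 of 84, HMGN1-207 from 4.50% and 5.02% to 9.91% in both (adjusted p = 0.03) and PRMT1-218 from 6.70% and 6.26% to 12.5% and 11.3% (adjusted p = 0.0397). The calls on CCT3-206, HMGN1-207 and PRMT1-218 were lost in every fit that left out a library.

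HMGN1, a nucleosome-binding protein, is a case where the share of the decay transcript rose and its level did not pass the test: HMGN1-207 was at 33.7 and 37.1 TPM with DMSO and 32.5 and 35.1 TPM with MS1943, and the gene fell from 749 and 739 to 329 and 354 TPM. Metabolism and transport genes had 1 rise and 1 fall of 169 tested. TALDO1-205, of the pentose phosphate enzyme transaldolase, rose from 0.869% and 1.73% to 6.44% and 7.78% (log2 change 2.54 ± 0.25, adjusted p = 4.31e-05). SLC44A2-207, of a choline transporter, fell from 1.07% and 3.52% to 0.52% and 0.947% (log2 change -1.71, adjusted p = 0.0266). That fall rested on DMSO replicate 2, without which the log2 change was -0.54 (adjusted p = 1.0). Transcripts of aminoacyl-tRNA synthetase genes had a median log2 change of 0.385 over 32 tested and 0 calls in edgeR or limma, with 3 higher and 0 lower at an unadjusted p under 0.05 in edgeR.

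Most called transcripts were on no list: 59 of the 98 rises and 14 of the 17 falls. PCK2-212, of the mitochondrial phosphoenolpyruvate carboxykinase, rose from 0.924% and 1.01% to 4.39% and 8.44% (adjusted p = 0.0188). BZW2-208, of a regulator of translation initiation, rose from 2.38% and 0.939% to 10.0% and 7.41% (log2 change 2.39, adjusted p = 0.00095). Its log2 change was 3.23 without DMSO replicate 1 and 1.9 without DMSO replicate 2, and the call was not kept in every fit that left out a library. TMX2-209, of a thioredoxin-related membrane protein, rose from 1.43% and 0.53% to 3.82% and 6.35% (log2 change 2.44, adjusted p = 0.0269). Without DMSO replicate 1 its log2 change was 3.34 and the call was lost (adjusted p = 0.0632). SSR2-203, of the translocon-associated protein beta, rose from 1.23% and 0.874% to 4.62% and 5.28% (adjusted p = 0.005). The calls on PCK2-212, TMX2-209 and SSR2-203 were lost in every fit that left out a library.

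**Figure D4:**
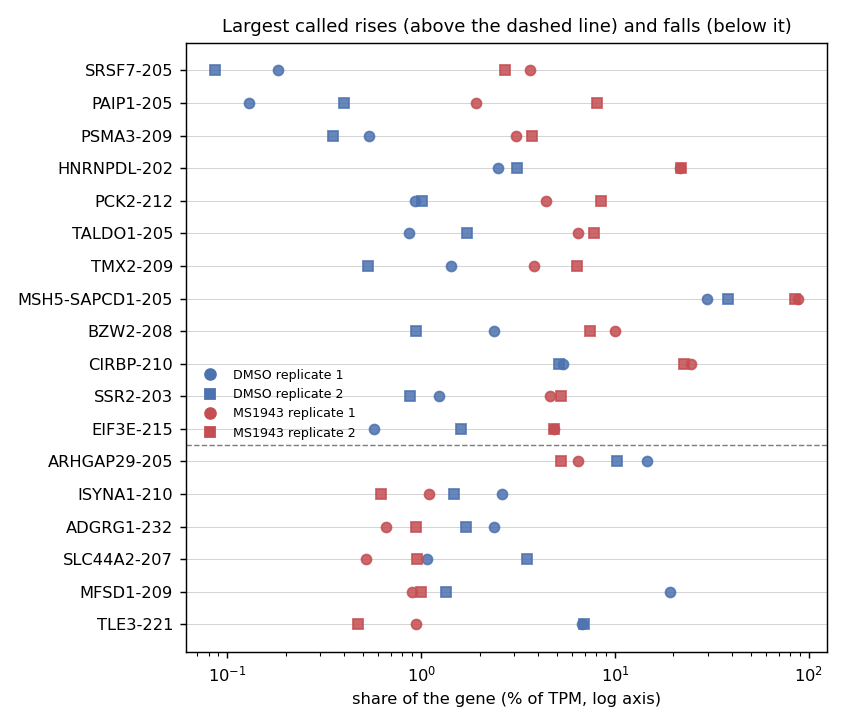
Share of the gene per library, in percent of TPM on a log axis, for the largest called rises (above the dashed line, 12 transcripts) and falls (below it, 6 transcripts) with a mean TPM of at least 2 and a level above 0 in every library; blue is DMSO, red is MS1943. The DMSO and MS1943 points do not overlap in any of them, which the choice of transcripts fixed, and the MFSD1-209 fall rests on DMSO replicate 1 at 19.3%.

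By percentage points, some decay transcripts became the leading form of their gene. MSH5-SAPCD1-205, of a readthrough of the neighbouring genes MSH5 and SAPCD1, went from 29.9% and 38.1% to 88.1% and 84.9% at 0.747 to 3.85 TPM (adjusted p = 0.0499). MRNIP-219, of a DNA repair protein that binds the MRN complex, went from 24.9% and 25.8% to 59.1% and 56.1% (log2 change 0.843 ± 0.078, adjusted p = 0.0206), while the main coding transcript MRNIP-201 was at 7.25 and 6.95 TPM with DMSO and listed at 0 in both MS1943 libraries. The calls on MSH5-SAPCD1-205 and MRNIP-219 were lost in every fit that left out a library. TMEM222-202 rose from 8.04% and 9.26% to 31.9% and 31.6% (adjusted p = 0.0285). TMEM18-205, of a nuclear envelope protein, rose from 11.5% and 10.8% to 33.1% and 31.5% (log2 change 1.41 ± 0.14, adjusted p = 2.8e-05), and ZNF326-204, of a zinc finger protein that acts in splicing, from 13.2% and 13.5% to 32.7% and 34.9% (adjusted p = 0.00163). TVP23C-206 was listed at 0 in both DMSO libraries and held 22.5% and 33.1% with MS1943, on 39.4 and 40.3 estimated reads.

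Falls were fewer. TLE3-221 was the firmest of them. TLE3 is a corepressor of the Groucho family. The transcript went from 6.78% and 6.88% of the gene to 0.939% and 0.47% (log2 change -3.52 ± 0.42, adjusted p = 1.65e-06), or from 14.5 and 15.2 TPM to 0.736 and 0.324 TPM. Without MS1943 replicate 1 the log2 change was -4.28. The TLE3 gene fell as well, from 214 and 221 to 78.4 and 68.9 TPM, and so did the share of its main coding transcript TLE3-208, from 18.6% and 18.4% to 11% and 4.37% (adjusted p = 0.00517).

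ARHGAP29-205, of a GTPase-activating protein, fell from 14.6% and 10.2% to 6.44% and 5.28% (adjusted p = 0.00388) with no call on its gene (adjusted p = 0.0893). ADGRG1-232, of an adhesion receptor, fell from 2.36% and 1.70% to 0.661% and 0.937% (adjusted p = 0.00516) in a gene that rose, with 6.90 and 5.00 TPM against 3.94 and 5.11 TPM, so its level was not called. ISYNA1-210, of inositol phosphate synthase, fell from 2.60% and 1.47% to 1.10% and 0.623% (adjusted p = 0.0426). MFSD1-209 was at 19.3% in DMSO replicate 1 but 1.35% in DMSO replicate 2, against 0.893% and 0.992% (log2 change -3.44, adjusted p = 0.0306), and without DMSO replicate 1 its log2 change was -0.543 (adjusted p = 1.0). ZNF821-216 went from 32.2% and 26.6% and VIPR1-207 from 7.77% and 8.98% to 0.00% in both MS1943 libraries, where they were listed at 0 reads, and PIN4-205 from 5.23% and 12.0% to 0.00% and 0.000686%. The call on PIN4-205 was lost without DMSO replicate 2 (adjusted p = 0.0807).

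How the stop codon arises was set beside the changes. Where it lay in bases that the main coding transcript lacks, 48 of 2017 tested rose and 3 fell, with a median log2 change of 0.289. Where it lay in bases that the main coding transcript also has, 43 of 2563 rose and 12 fell, with a median of 0.174. Where the main stop codon was used, 3 of 225 rose and 1 fell, with a median of 0.133. The difference between these structures was not tested. By the number of junctions after the stop the medians were 0.206 (1 junction), 0.246 (2 to 4) and 0.157 (5 or more), so they did not climb with the number.

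At gene level, 30% of all 19358 genes tested were higher and 29.4% lower. Of the 13 decay factors, 5 rose and 3 fell, counts that are near those shares. NBAS, a cofactor also active in Golgi-to-ER transport, rose from 16.5 and 14.8 to 25.2 and 25.5 TPM (log2 fold change 0.795 ± 0.063, adjusted p = 1.94e-09). SMG1 rose by 0.42 ± 0.065, from 21.2 and 24.5 to 27.1 and 25.2 TPM. DHX34 and SMG6, named beyond the rule after their values were seen, rose by 0.219 and 0.165. PNRC2, which links UPF1 to decapping, fell from 170 and 159 to 72.9 and 66.5 TPM (log2 fold change -1.15 ± 0.061, adjusted p = 5.8e-12). UPF1 itself fell from 110 and 119 to 91.5 and 91.4 TPM (-0.335 ± 0.056, adjusted p = 3.5e-05) and SMG9 by less (-0.204 ± 0.053, adjusted p = 0.00261). Scaled by total reads, which moved the median of all genes by -0.12 on the log2 scale, the counts were 3 higher and 6 lower. Without MS1943 replicate 1 they were 3 and 3.

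The decay factor genes had 3 decay transcripts of their own among the 5312. Of these, DHX34-202 held 13.3% and 14.9% of DHX34 against 17.2% and 19.3%. edgeR called 0 of the 3, and 0 had an unadjusted p under 0.05. Of the 9 exon junction complex genes, 1 rose and 3 fell: RBM8A (-0.255 ± 0.055), EIF4A3 (-0.207 ± 0.058) and MAGOHB (-0.297 ± 0.086) were the falls. Of 36 genes of general mRNA decay 35 were tested, 12 rose and 9 fell, again near the 30% and 29.4% of all genes, with the decapping enzyme DCP2 (-0.633 ± 0.055) and the exosome subunit EXOSC1 (0.683 ± 0.072) among them.

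RNAs known as substrates of the pathway were mostly higher. Of 21 genes, 15 rose and 2 fell, with a median log2 fold change of 0.657. Several of them also belong to the transcriptional response to stress. UPP1, a uridine phosphorylase, rose from 122.8 and 119.9 to 1542 and 1537 TPM (log2 fold change 3.8 ± 0.066). DDIT3, the stress factor CHOP, rose from 12.1 and 12.6 to 102 and 101 TPM, GADD45A from 49.97 and 56.2 to 338 and 381 TPM, and CDKN1A, the cell cycle inhibitor p21, from 16.3 and 15.3 to 88.7 and 89.0 TPM. ATF3 (2.5 ± 0.064) and the cystine transporter SLC7A11 (2.19 ± 0.059) rose too. ATF4, the factor upstream of several of these, was at 1157 and 1147 TPM with DMSO and 1112 and 1071 TPM with MS1943 (log2 fold change 0.0549, adjusted p = 0.461). The falls, named after their values were seen, were GADD45B (-1.02 ± 0.062) and UPF1. Whether transcription or decay moved these RNAs cannot be told apart from steady-state levels.

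**Figure D5:**
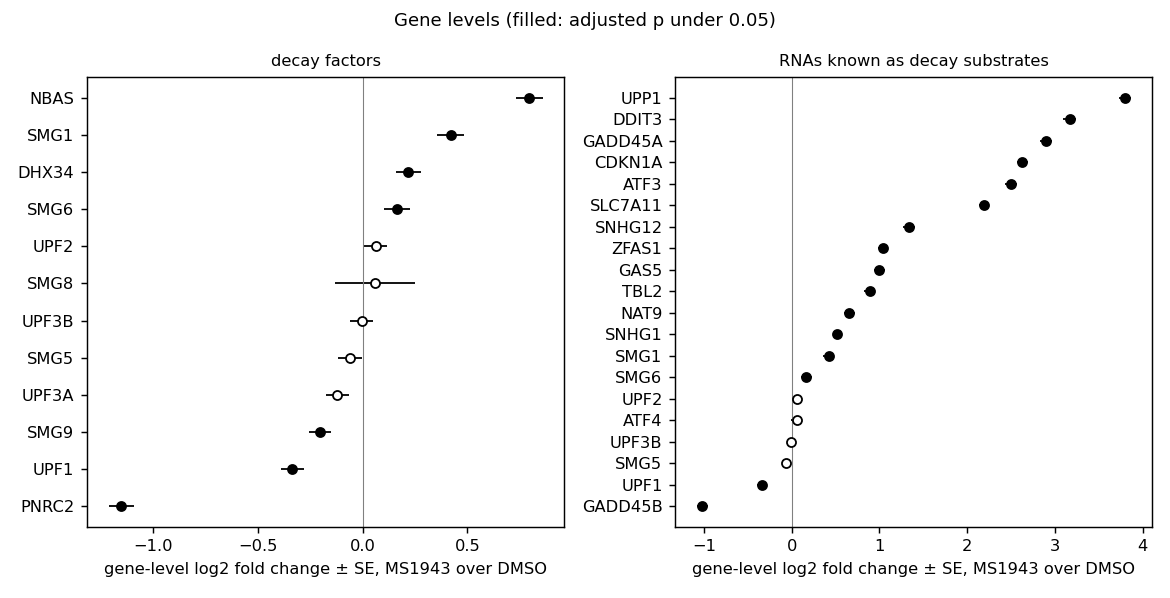
Gene-level log2 fold change with its SE (MS1943 over DMSO, edgeR) for 12 of the 13 decay factors (left) and 20 of the 21 genes whose RNAs are known as substrates of the pathway (right); filled points have an adjusted p under 0.05 and each panel has its own axis. The factors range from PNRC2 at -1.15 to NBAS at 0.795, and the substrates from GADD45B at -1.02 to UPP1 at 3.8.

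UPP1 joins both views, since 2 of its decay transcripts were called, the 2 rises among 13 such transcripts of the substrate genes. They are named after their values were seen. UPP1-209 went from 1.71% and 1.2% to 6.13% and 6.87% of the gene (log2 change 2.16 ± 0.27, adjusted p = 1.8e-05), or from 2.10 and 1.44 TPM to 94.5 and 106 TPM. UPP1-206 went from 0.911% and 1.15% to 2.46% and 2.66% (adjusted p = 0.0448), although its annotated stop codon has no junction after it. The targeted gene EZH2 had 2 decay transcripts, EZH2-207 at 2.23% and 1.49% with DMSO against 2.32% and 2.00% with MS1943 and EZH2-209 at 2.29% and 2.87% against 2.84% and 2.92%, and neither was called (adjusted p = 1.0).

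Of the 44 transcripts named by rule with a called share, 13 kept the call in each of the 4 fits that left out a library. Among them were the rises of SRSF7-205, RBM39-206, RPL13A-214, PSMA3-209, PSMD2-204, PSME4-201, TALDO1-205, UQCRH-205, TMEM18-205 and ZNF326-204. The falls of TLE3-221 and of VIPR1-207, which had no reads in either MS1943 library, also kept the call. The other 31 lost it in at least 1 of those fits.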

How the data were processed

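Poly(A)-selected RNA of 4 libraries was quantified by the authors with Salmon 0.9.1 on hg38, per the submitters' processing notes, which also name R 3.4.3 and DESeq2; the annotation release is not given in the sources used here. Both the expected counts (estimated reads per transcript) and the TPM values are those of the deposited files, per the file headers, and the libraries hold 47564377 to 71378893 estimated reads. The TruSeq v2 kit does not mark strand, and Salmon divides reads among transcripts with shared sequence, and the error of this division is not in the files.

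A library's table has 197653 transcripts. After 164 pseudoautosomal copies were merged, 193348 matched GENCODE 29 by identifier without version, and the 4142 that did not, with 0.482% to 0.496% of reads, were left out. Of the 5312 transcripts, 98.1% have the length that GENCODE 29 gives. Shares are from TPM. Tests ran on estimated reads rounded to whole numbers, with edgeR 4.0.16 in R 4.3.3 (TMM, filterByExpr, treatment alone): diffSpliceDGE for shares, and the quasi-likelihood F test for the level of 74941 transcripts and 19358 genes. Benjamini-Hochberg adjustment ran over all transcripts or genes tested, and called means an adjusted p under 0.05. Dispersion, as edgeR's common coefficient of variation, was 0.37 for transcripts and 0.0478 for genes. Values after ± are SE for log2 changes. Limma 3.58.1, DESeq2 1.42.0, other scalings, filters, denominators and leaving out each library were alternatives.

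The share test was tested on simulated data: with no change it made 0 calls among 67926 transcripts. With 200 transcripts changed, calls were made for 49 of 66 at a 1.5-fold change, for 62 of 66 at 2-fold and for 64 of 65 at 4-fold. It made 14 calls among 66282 transcripts of unchanged genes. The spread between simulated libraries was set far below the 0.37 found for the real transcripts, and the changed transcripts were drawn from those with more reads. These counts therefore do not give the rates of false or missed calls in the real data.

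Members and lists were chosen with earlier results of these data known. Named transcripts are, by rule, the 12 largest called rises and falls in fitted share change with a mean TPM of at least 2 and a level above 0 in every library, the 6 most abundant, the 6 largest called changes in points each way, up to 4 of each host gene list with the smallest adjusted p, those of decay factor genes and EZH2, and 3 on each side of the TPM threshold. At gene level they are up to 6 of each list, with UPF1, SMG1, ATF4 and EZH2. The first rule also asked that both MS1943 shares lie outside the DMSO range on that side, and only 6 falls met it. Not every gene the rule takes is described. Some items are not reported here, although the counts include them.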

Additional observations from a re-analysis of the deposited data

How the results depend on the processing

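No paired analysis was possible because the labels give the libraries no replicate numbers, and those used here only name a library in the order of deposit. With 2 libraries a group the spread is poorly known, and the error of dividing reads among transcripts is not in the files. Transcripts with few reads were left untested or vary most, so a missing call there does not show that a share stayed the same. The number of decay transcripts with a higher share, 98 in edgeR, was 57 with no filter on low counts, 48 for annotation support levels 1 and 2, 25 in limma on TPM shares with a pseudocount of 1 and 0 with a pseudocount of 0.1 (770 higher and 207 lower at an unadjusted p under 0.05, and 0 of 59471 transcripts of any type called). It was 49 to 79 when 1 library was left out, where the group left with 1 library is assumed to vary like the other, with the lowest count without MS1943 replicate 2. The number lower, 17, was 11 with coding and decay transcripts alone in the denominator, 10 at a mean TPM of at least 1, 10 for those above 0 in every library (chosen after seeing the data), 7 for support levels 1 and 2, 5 at 0.5 TPM or more in every library, 2 and 0 in limma with pseudocounts of 1 and 0.1, and 6 to 25 with a library left out. In these, 115 of 115 called transcripts kept their sign (114 of 114 tested without MS1943 replicate 1). Scaling by DESeq2 size factors or total reads left 96 and 95 higher and 17 lower in both.

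Levels of decay transcripts (413 higher, 133 lower) gave 44 to 121 higher and 17 to 32 lower with a library left out, and DESeq2 called 590 higher and 204 lower. Pooled shares per gene (172 higher, 39 lower) gave 14 to 104 higher and 2 to 16 lower with a library left out. Decay factor genes went from 5 higher and 3 lower to 3 higher and 6 lower with total reads, and to 3 to 5 higher with a library left out. Substrate genes had 4 lower with total reads. The difference in summed share, 0.422 points of TPM, was 0.307 points of reads and 0.352 to 0.492 with a library left out. The difference in median share, 1.07 points, was 0.603 in reads, 1.38 at a mean TPM of at least 1, 1.35 at 0.5 TPM in every library, 1.35 with coding and decay transcripts alone, and 0.948 to 1.19 with a library left out. The cause of these shifts was not tested. No named transcript or gene that was called in the main fit or in an alternative had opposite signs in these 2 fits. Some uncalled values did change sign. The log2 change of share of EZH2-207, for example, was 0.535 without DMSO replicate 1 and -0.0543 without DMSO replicate 2.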
